A study of Homo sapiens with 28 samples.

Results

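The peaks described here are 598 binding sites of the repressor REST that lie in chromatin carrying the histone mark H3K4me1 in human GP5d cells, an established colon adenocarcinoma line. They were chosen by measured peaks: every REST peak of the control cells that overlaps an H3K4me1 peak of the control cells by at least 1 bp. They make up 598 of 4069 control REST peaks, or 14.7% (95% Clopper-Pearson interval 13.6% to 15.8%), and are called members below. The overlap of REST with H3K4me1 in control cells is therefore the way the members were found and not a result. The remaining 3471 control REST peaks, called outside peaks, are the comparison, and 2978 of them had no peak of any other target.

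The series holds chromatin immunoprecipitation sequencing (ChIP-seq), which pulls down DNA bound by a protein with an antibody and reports the places where the sequenced fragments pile up. Cells of the RAD21 siRNA group received 50 nM of small interfering RNA against RAD21, and cells of the control group 50 nM of a neutral siRNA; all were harvested at 72 hours. Both groups are the same GP5d line, with no other alteration named. Each of 11 targets has 1 peak list per siRNA, so no difference between the siRNAs has a replicate check, no p-value between libraries is given, and every interval below covers counting error only.

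REST is a zinc finger repressor that keeps neuronal genes silent in cells outside the nervous system by recruiting corepressors to a long recognition element called RE1. H3K4me1 marks enhancers and the flanks of active promoters. Cohesin is a ring that holds DNA segments together and forms chromatin loops; RAD21 closes the ring, SMC3 is part of its core, NIPBL loads it onto DNA, and CTCF is the zinc finger protein at which it most often halts. HNF4A is a nuclear receptor of the gut and liver epithelium, JUND an AP-1 subunit, KLF5 a Krüppel-like factor of intestinal epithelium, MYC a growth-promoting factor that favours active chromatin, and RFX2 a winged-helix factor.

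The libraries differed in depth. The REST library held 4203643 filtered tags under RAD21 siRNA and 6787207 under control siRNA, a ratio of 0.619. The rabbit IgG library behind both REST lists held 4101535 and 8916252. IgG tag counts were the same for H3K4me1 and all other targets but CTCF and RFX2, whose IgG libraries held 3293704 and 3914714. The part of this shared background in the overlaps below was not tested. The ratio of filtered tags, RAD21 siRNA over control, lay between 0.346 for CTCF and 0.619 for REST in 9 of the 11 targets and was 1.02 for MYC and 2.02 for JUND. RAD21, the targeted protein, had 19752 peaks under RAD21 siRNA and 36204 under control siRNA. A peak missing under RAD21 siRNA can thus be lower binding or fewer tags, which cannot be told apart here. The siRNA tag of most RAD21 siRNA libraries disagrees with their titles and descriptions, which were followed. The product code listed for the H3K4me1 libraries is generally known as a pan-histone H3 antibody, and the MYC code as a mouse antibody where the titles name rabbit, so these 2 names follow the titles only. The control lists of JUND and NIPBL hold no peak under a false discovery rate (FDR) of 5%.

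Members were weaker REST peaks than those outside H3K4me1. MACS gives each peak a strength as −10 × log10 p, called the p score below. The median p score was 127 at members and 290 at outside peaks, the median fold enrichment over IgG 8.70 and 16.7, and the median tag count 36 and 45. Peaks under an FDR of 5% were 240 of the members, or 40.1%, and 1931 of the outside peaks, or 55.6%. When all control REST peaks were put in 5 strata of rising p score, members made up 21.5%, 17.0%, 15.7%, 11.1% and 8.23% of them, so the share fell with strength at every step. The strong end was not empty, with a p score of at least 3000 at 48 members and 543 outside peaks. Members were also narrower, with a median width of 1610.5 bp against 1761 bp at outside peaks, although a wide peak meets an overlap rule more easily.

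The rule cuts a continuous scale at its edge. Only 14 members overlapped H3K4me1 by under 100 bp. The shortest overlaps were 10 bp at chr1:90130476-90131484 (11 REST tags), 10 bp at chr15:21233669-21235512 (39 tags) and 19 bp at chr11:93590205-93592906 (107 tags). Just beyond the rule, 13 outside peaks lay within 100 bp of an H3K4me1 peak and 137 within 1000 bp. The nearest were chr4:175554564-175555979 at a gap of 7 bp (17 tags), chr14:23591091-23593977 at 14 bp (85 tags) and chr14:90036587-90037698 at 19 bp (16 tags). All coordinates are on the hg18 build.

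REST summits mostly lay inside the H3K4me1 peak, at varied distances from its summit. The REST summit fell inside an H3K4me1 peak at 473 members, or 79.1% (75.6% to 82.3%), and 283 members lay wholly inside one, while 127 had under 50% of their width covered. The median distance between the REST and the H3K4me1 summit was 762.5 bp (quartiles 248 and 1751 bp), and 151 members, or 25.3%, had summits within 250 bp of each other. Of 472 summits placed in the H3K4me1 peak with the longest overlap, 290, or 61.4% (56.9% to 65.9%), lay in the outer parts when the peak was cut into 3 equal lengths, which make up 66.7% of its length. The middle part, 33.3% of the length, held 182, or 38.6% (34.1% to 43.1%). Strong members sat differently from weak ones. In the upper 2 strata of p score 56.7% of 157 members had the summit inside, with a median width of 2732 bp, against 86.9% of 313 members in the lower 2 strata, with a median width of 1223 bp. Wide strong peaks can reach an H3K4me1 peak with their flank, and this difference is partly set by the rule.

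The H3K4me1 peaks that held a REST peak were themselves large. These 610 of 61108 H3K4me1 peaks had a median width of 2935 bp and 160 tags, against 2380 bp and 99 tags in the other 60498. They held REST by choice, so these values are a description.

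Cohesin, its loader and CTCF were found at members more often than at outside peaks under both siRNAs. RAD21 peaks overlapped 68 members under RAD21 siRNA, or 11.4% (8.94% to 14.2%), and 4.18% of outside peaks, with 5.23% over all control REST peaks. Under control siRNA RAD21 overlapped 134 members, or 22.4% (19.1% to 26.0%), and 7.14% of outside peaks, with 9.39% over all. SMC3 overlapped 30 members, or 5.02%, under RAD21 siRNA against 2.59% of outside peaks (2.95% over all), and 161 members, or 26.9%, under control siRNA against 8.10% outside (10.9% over all). The member shares of both cohesin subunits were thus lower under RAD21 siRNA, and that of SMC3 the more so, in libraries with 0.615 and 0.531 of the control tags.

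NIPBL showed the widest relative gap of this group. Its peaks overlapped 44 members, or 7.36%, under RAD21 siRNA against 0.807% of outside peaks (1.77% over all), and 124 members, or 20.7%, under control siRNA against 1.44% outside (4.28% over all). The control difference was 19.3 percentage points (16.0 to 22.6). CTCF overlapped 100 members, or 16.7%, under RAD21 siRNA against 6.71% outside (8.18% over all), and 115 members, or 19.2%, under control siRNA against 8.84% outside (10.4% over all). Among the 9 targets the CTCF share at members was the closest in ratio between the siRNAs, although the CTCF library under RAD21 siRNA had 0.346 of the control tags.

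**Figure D1:**
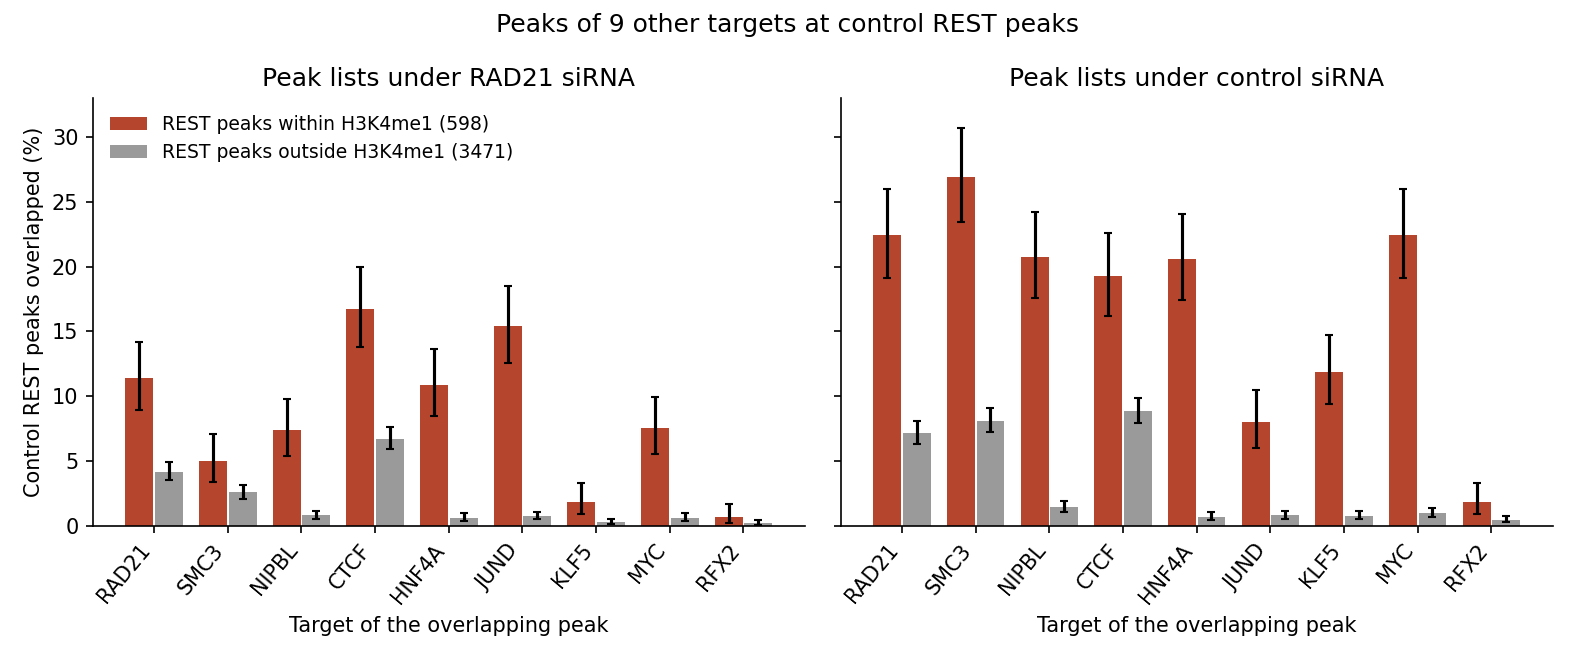
Share of control REST peaks overlapped by at least 1 bp by a peak of 9 other targets, from the RAD21 siRNA lists (left) and the control lists (right). Bars are the 598 REST peaks within H3K4me1 (red) and the 3471 outside it (grey) with 95% Clopper-Pearson intervals; the red bar is higher for every target, with RFX2 under RAD21 siRNA at 0.669% against 0.202% the only pair whose difference has an interval that holds 0.

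The sequence-specific factors were nearly absent from outside peaks. HNF4A overlapped 65 members, or 10.9%, under RAD21 siRNA against 0.634% of outside peaks (2.14% over all), and 123 members, or 20.6%, under control siRNA against 0.691% outside (3.61% over all). MYC overlapped 45 members, or 7.53%, under RAD21 siRNA against 0.634% outside (1.65% over all), and 134 members, or 22.4%, under control siRNA against 0.980% outside (4.13% over all). KLF5 overlapped 11 members, or 1.84%, under RAD21 siRNA against 0.288% outside (0.516% over all), and 71 members, or 11.9%, under control siRNA against 0.778% outside (2.41% over all).

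JUND went the other way between the siRNAs, at 92 members, or 15.4%, under RAD21 siRNA against 0.749% outside (2.90% over all), and 48 members, or 8.03%, under control siRNA against 0.807% outside (1.87% over all). Its library under RAD21 siRNA held 2.02 times the control tags. RFX2 was rare, at 4 members, or 0.669%, under RAD21 siRNA against 0.202% outside (0.270% over all), and 11 members, or 1.84%, under control siRNA against 0.461% outside (0.664% over all). The RFX2 difference under RAD21 siRNA, 0.47 percentage points with an interval of −0.24 to 1.18, was not detectable at this depth; the other 8 targets under RAD21 siRNA and all 9 under control siRNA had intervals above 0.

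Over the 9 targets together, 238 members, or 39.8% (35.9% to 43.8%), held at least 1 peak under RAD21 siRNA, against 9.68% of outside peaks and 14.1% of all control REST peaks. Under control siRNA 351 members, or 58.7% (54.6% to 62.7%), did so, against 14.2% of outside peaks and 20.7% of all. The mean number of targets per member was 0.77 under RAD21 siRNA and 1.54 under control siRNA, and per outside peak 0.17 and 0.29. At 96 members the control lists held 4 or more of the 9 targets, against 35 outside peaks. Strong and weak REST peaks both showed these gaps. In the upper 2 strata of p score 63.1% of 157 members and 18.2% of 1471 outside peaks held a control peak of another target, and in the lower 2 strata 57.2% of 313 members and 12.9% of 1315 outside peaks.

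The shares depend strongly on what counts as the same place. When summits had to lie within 250 bp, RAD21 was at 4.18% of members under RAD21 siRNA and 9.53% under control siRNA, SMC3 at 1.84% and 12.04%, NIPBL at 2.17% and 9.36%, and CTCF at 5.69% and 6.02%. HNF4A was at 2.51% and 6.86%, MYC at 2.17% and 8.19%, and JUND at 4.68% and 3.68%. The control difference from outside peaks shrank to 6.16 percentage points for RAD21 (3.72 to 8.60) and to 6.51 for HNF4A (4.47 to 8.56). Its interval still lay above 0 for 7 of the 9 targets under RAD21 siRNA and 8 under control siRNA, without SMC3 and RFX2 under RAD21 siRNA and RFX2 under control siRNA.

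The lists of the other targets lie within H3K4me1 to different degrees. In control cells the share was 87.8% for HNF4A, 86.1% for MYC, 83.2% for NIPBL, 80.5% for JUND and 78.2% for KLF5. It was 43.6% for RFX2, 34.1% for SMC3, 31.2% for RAD21 and 25.4% for CTCF. The part of this in the gaps above was not tested. A second comparison stays within H3K4me1 and sets the 610 H3K4me1 peaks that hold REST against the other 60498 at like width. Under control siRNA the peaks with REST more often held NIPBL (29.0% against 15.3%; 9.38 percentage points at like width, 5.93 to 12.8), SMC3 (32.0% against 20.9%; 7.79, 4.14 to 11.4), HNF4A (27.7% against 14.96%; 7.65, 4.38 to 10.9) and RAD21 (28.7% against 18.2%; 7.62, 4.09 to 11.2). MYC (6.19 points), KLF5 (3.92) and JUND (3.83) also had intervals above 0, whereas CTCF (2.45, −0.88 to 5.79) and RFX2 (−0.17, −1.30 to 0.95) did not. Under RAD21 siRNA the difference had an interval above 0 for HNF4A (4.32 points), RAD21 (3.98) and CTCF (3.38) and included 0 for the other 6 targets. For each of the 9 targets and both siRNAs, the difference in percentage points was larger between REST peaks within and outside H3K4me1 than between H3K4me1 peaks with and without REST. The first is a plain difference over REST peaks and the second is at like width over H3K4me1 peaks, so they are unlike measures. H3K4me1 peaks with REST were also stronger, with a median p score of 361 against 200, which was not matched. The gap between these differences was not tested.

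Cohesin at members came in 2 forms. Cohesin, that is RAD21 or SMC3, lay together with CTCF at 47 members (7.86%) under RAD21 siRNA and 84 (14.0%) under control siRNA. Outside peaks with both numbered 121 (3.49%) and 219 (6.31%). Cohesin without CTCF lay at 25 members (4.18%) under RAD21 siRNA and 100 (16.7%) under control siRNA, and at 40 (1.15%) and 102 (2.94%) outside peaks. In control cells cohesin without CTCF was thus the more frequent form at members, at 16.7% against 2.94% of outside peaks, and the less frequent form at outside peaks. CTCF without cohesin was listed more often under RAD21 siRNA in both classes, at 53 members (8.86%) against 31 (5.18%) under control siRNA. At outside peaks it was 112 (3.23%) against 88 (2.54%). The RAD21 and SMC3 lists under RAD21 siRNA held 0.546 and 0.323 times the control number of peaks. The part of these shorter lists in the counts of each form was not tested. NIPBL with cohesin was found at 9 members (1.51%) under RAD21 siRNA and 78 (13.0%) under control siRNA, and at 10 (0.288%) and 21 (0.605%) outside peaks. NIPBL without cohesin was found at 35 (5.85%) and 46 (7.69%) members, and at 18 (0.519%) and 29 (0.835%) outside peaks.

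Followed site by site, the plain share with cohesin found under RAD21 siRNA differed between the cohesin forms. The shares were not taken at like strength of the RAD21, SMC3 or CTCF peaks. The RAD21 and SMC3 libraries under RAD21 siRNA held 0.615 and 0.531 of the control tags. The part of peak strength and depth in these shares was not tested. Of the 84 members with cohesin and CTCF in control cells, 72.6% (61.8% to 81.8%) kept a CTCF peak, 57.1% (45.9% to 67.9%) a RAD21 peak and 31.0% (21.3% to 42.0%) an SMC3 peak. Of the 100 members with cohesin but no CTCF, 9% had a RAD21 peak under RAD21 siRNA and 3% an SMC3 peak, and 12% (6.36% to 20.02%) had either. The REST peak itself was found again at 55 of the 84 (65.5%, 54.3% to 75.5%), at 53 of the 100 (53%, 42.8% to 63.1%) and at 19 of the 31 members with CTCF but no cohesin (61.3%), with intervals that overlap.

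REST peaks within H3K4me1 were found again less often under RAD21 siRNA than those outside it, but not at like strength. A REST peak overlapped 349 of the 598 members under RAD21 siRNA, or 58.4% (54.3% to 62.3%), and 2461 of the 3471 outside peaks, or 70.9% (69.4% to 72.4%), with 69.1% over all control REST peaks. The plain difference was −12.5 percentage points (−16.8 to −8.31). In the 5 strata of rising p score members were found again in 16.6%, 40.6%, 83.6%, 100% and 100% of cases, and outside peaks in 18.2%, 41.7%, 86.6%, 99.9% and 100%. Weighted over these strata by Mantel-Haenszel weights, the difference was −1.31 percentage points (−4.40 to 1.78), and with strata of fold enrichment it was 2.97 (−0.50 to 6.44), so its sign depended on the measure of strength. All 157 members of the upper 2 strata were found again.

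**Figure D2:**
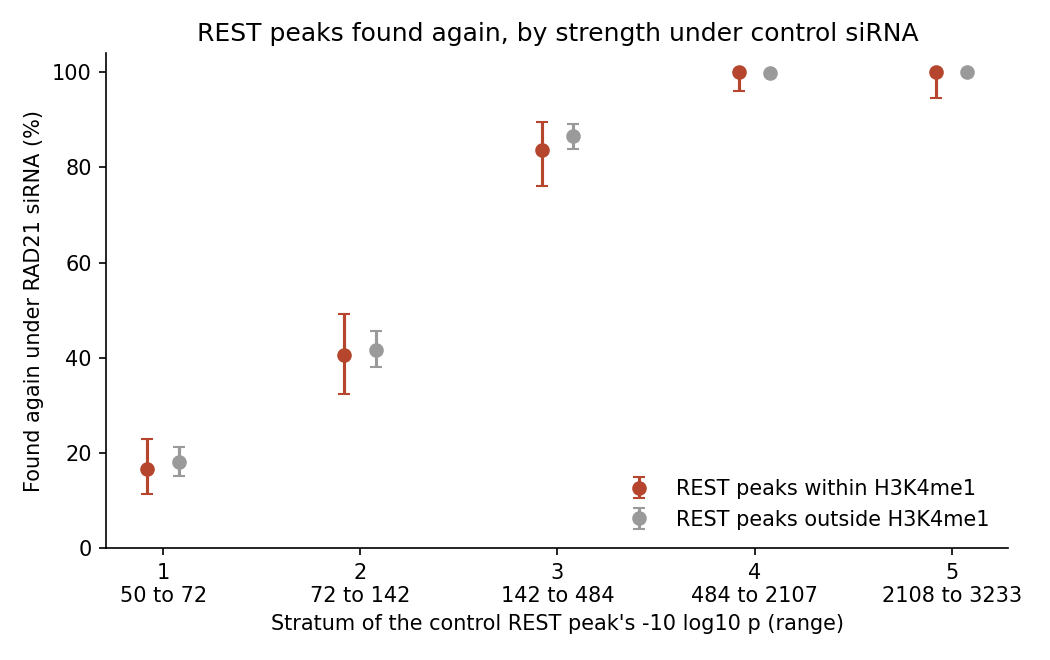
Share of control REST peaks overlapped by a REST peak of the RAD21 siRNA cells, in 5 equal strata of the control peak's −10 × log10 p. Red points are REST peaks within H3K4me1 and grey points those outside it, with 95% Clopper-Pearson intervals; the intervals overlap in every stratum, and shares run from 16.6% and 18.2% in the first stratum to 100% in the fifth.

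The 249 members not found again were weak and narrow peaks, as were the 1010 outside peaks not found again. The outside ones had a median tag count in control cells of 14, a median p score of 70.9 and a median width of 1118 bp. In the 249 members these medians were 17, 67.4 and 1153 bp, against 73 tags, 394 and 1998 bp in the 349 found again. Only 42 of the 249 had a p score of at least 100, and the highest was 372.53. For 244 no REST peak lay within 1000 bp under RAD21 siRNA. The mark remained listed at most of them, with an H3K4me1 peak under RAD21 siRNA at 191 of the 249.

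An H3K4me1 peak of the RAD21 siRNA cells overlapped 488 of the 598 members, or 81.6% (78.3% to 84.6%), and 3.66% of outside peaks, with 15.1% over all control REST peaks. The outside peaks lacked the mark in control cells by the rule. REST and its H3K4me1 peak tended to be found again together. Here the H3K4me1 peak counts as found again if a RAD21 siRNA H3K4me1 peak overlaps it anywhere, also away from the REST peak. REST was found again at 306 of 505 members whose H3K4me1 peak was, or 60.6% (56.2% to 64.9%), and at 43 of the other 93, or 46.2% (35.8% to 56.9%). At like REST strength the difference was 13.3 percentage points (5.60 to 21.0).

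It was the only one of 15 such splits of the members whose interval at like strength left out 0; the intervals were not adjusted for their number. Members with a control RAD21 peak were found again in 56.0% of 134 cases and those without in 59.1% of 464, which at like strength is −5.09 percentage points (−11.5 to 1.37). For CTCF the shares were 64.3% and 56.9% (2.77 points, −4.73 to 10.3), for NIPBL 47.6% and 61.2% (−2.46, −9.07 to 4.15) and for JUND 37.5% and 60.2% (−8.83, −18.8 to 1.10). Members with NIPBL or JUND were weaker REST peaks, with median p scores of 84.1 and 79.2 against 150 and 137 in members without. Among the 134 members with RAD21, REST was found again at 59.6% of the 52 that kept RAD21 and at 53.7% of the 82 that did not (9.04 points, −2.19 to 20.3).

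At the 349 members found again, the median ratio of REST tags was close to that of the libraries. The median tag count was 45 under RAD21 siRNA and 73 under control siRNA, and the median ratio was 0.596, against 0.625 at outside peaks and 0.619 for the libraries as a whole. Scaled to the filtered tags of each library the ratio was 0.963 (quartiles 0.782 and 1.21) and lay above 1 in 167 of 349. Only members found again enter this ratio. In the lower 2 strata of p score it was 1.10 at the 85 of 313 members found again, and 1.26 at outside peaks. In stratum 3 it was 0.959 and 0.969. In the upper 2 strata, where all 157 members were found again, it was 0.940 and 0.993. Peaks at members were narrower under RAD21 siRNA, with a median width of 1586 bp against 1998 bp, and their summits lay a median of 50 bp from the control summit. Outside peaks found again were narrower too, at 1728 bp against 2154 bp. The median ratio of width was 0.756 at members and 0.768 at outside peaks. The fragment length MACS used for REST was 281 bp under RAD21 siRNA and 345 bp under control siRNA. The part of fragment length and depth in the width was not tested. At members the fold enrichment over IgG was higher, at a median of 30.1 under RAD21 siRNA and 15.5 under control siRNA, and higher in 304 of 349. The median ratio of fold was 1.90 at members and 1.60 at outside peaks. The IgG library under RAD21 siRNA held 0.460 of the control IgG tags, and its part in the fold enrichment was not tested.

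**Figure D3:**
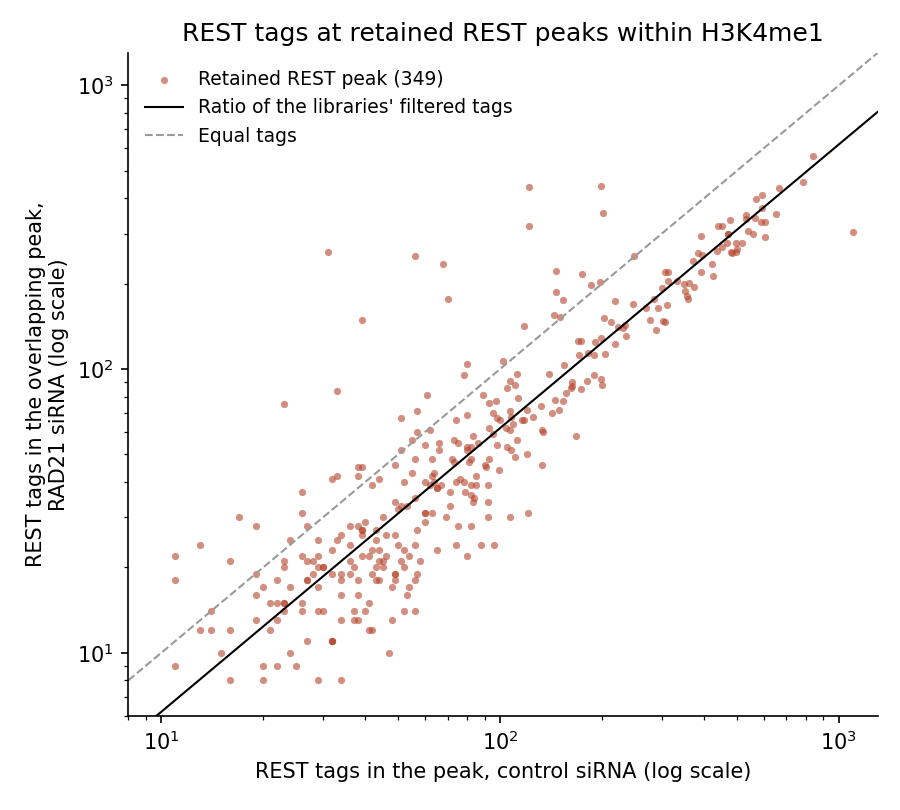
REST tags per peak at the 349 REST peaks within H3K4me1 that were found again, control siRNA on the x axis and RAD21 siRNA on the y axis, both on a log scale. The solid line is the ratio of the filtered tags of the libraries (0.619) and the dashed line equal tags; points spread around the solid line over the whole range, and 45 of 349 lie above the dashed one.

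A few members stood well off that line; they were chosen after their values were seen. Scaled in the same way, 26 of 349 members, or 7.45%, had at least 2 times the control tags under RAD21 siRNA, against 6.54% of outside peaks. In 9 members, or 2.58%, the ratio was at least 4, against 2.40% of outside peaks. At the low end, 15 members, or 4.30% (2.43% to 6.99%), had a ratio of 0.5 or less, against 48 outside peaks, or 1.95% (1.44% to 2.58%). Of the 9 members with the highest ratios, 5 had another control REST peak within 1000 bp, whose part in the ratio was not tested. At chr11:65811497-65812989 the RAD21 siRNA peak with 258 tags met a control peak of 31 tags at its edge. Its summit lay 1123 bp from that of the control peak, inside a second control peak of 496 tags (chr11:65813182-65815329). The second peak is also a member, and the same 258 tags were counted for both members. The other 4 had no such neighbour. They include chr19:4122887-4125789, with 439 tags under RAD21 siRNA and 122 under control siRNA (summits 256 bp apart), and chr1:65546784-65549594, with 234 and 68 tags (70 bp apart).

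The other targets were found again at members about as often as elsewhere in H3K4me1. Of the control peaks that overlap a member, CTCF was found again in 72.9% of 118 under RAD21 siRNA, against 66.9% of its other peaks within H3K4me1. RAD21 was found again in 42.2% of 135 against 40.3%, HNF4A in 37.4% of 123 against 35.1%, JUND in 35.4% of 48 against 39.6%, NIPBL in 18.3% of 126 against 17.7%, SMC3 in 18.2% of 165 against 23.8%, and KLF5 in 7.04% of 71 against 11.1%. For these 7 targets and RFX2, with 1 of 12 peaks found again, the difference at like strength had an interval that holds 0. MYC peaks at members were found again less often, in 21.9% of 137 against 29.2%, which at like strength is −10.6 percentage points (−17.3 to −3.96). H3K4me1 peaks with a member were found again more often, in 84.8% of 610 against 74.2% (3.07 points at like strength, 0.40 to 5.75).

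**Figure D4:**
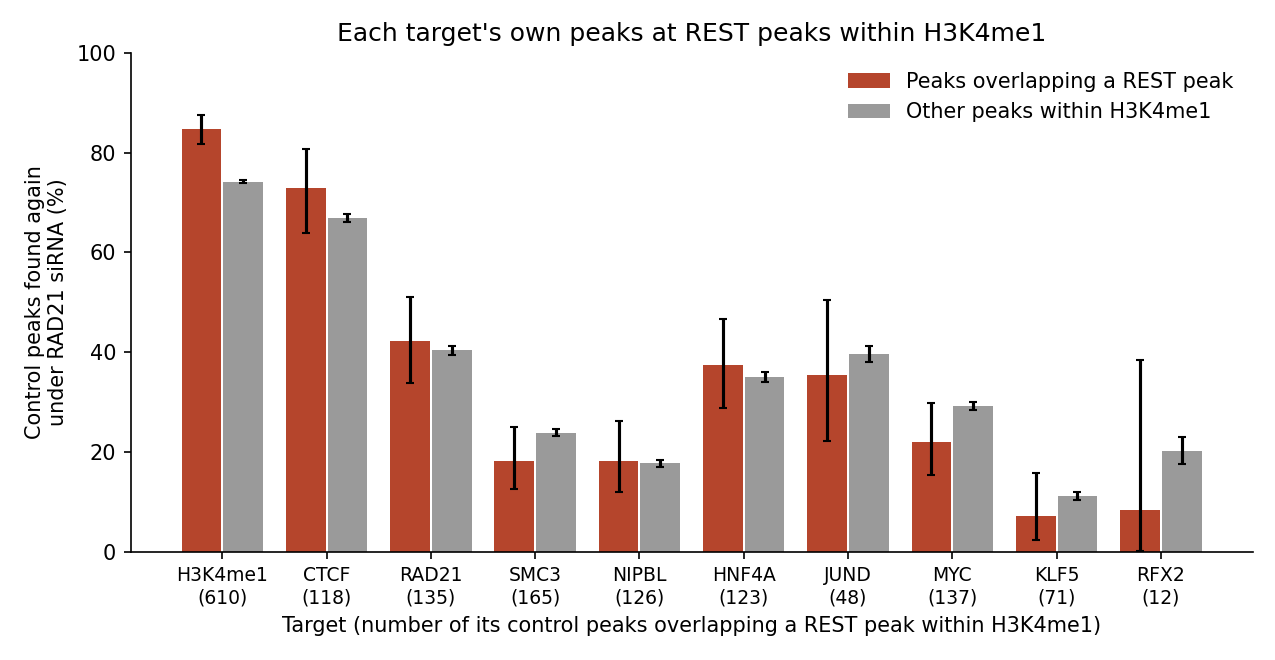
Share of each target's own control peaks found again under RAD21 siRNA, for peaks that overlap a REST peak within H3K4me1 (red) and for its other peaks within H3K4me1 (grey), with 95% Clopper-Pearson intervals; the number of red peaks is under each name. H3K4me1 (84.8%) and CTCF (72.9%) stand highest, RAD21 is at 42.2%, and SMC3 and NIPBL at 18.2% and 18.3%.

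The same rule applied to the RAD21 siRNA lists gave more REST peaks within H3K4me1. There 1002 of 4360 REST peaks, or 22.98% (21.7% to 24.3%), overlapped an H3K4me1 peak of the same cells, against 598 of 4069, or 14.7%, under control siRNA. The gap was widest among peaks of low p score. With a p score of 50 to 100 the share was 32.8% under RAD21 siRNA and 20.1% under control siRNA, from 100 to 200 it was 22.2% and 15.7%, from 200 to 400 it was 18.2% and 16.0%, and at 400 or more 12.3% and 9.97%. RAD21 siRNA libraries held 0.619 of the control REST tags and 0.460 of the IgG tags. The same p score class therefore need not hold peaks of like strength in both lists. Among REST peaks with an FDR under 5% the shares were 19.1% and 11.1%. Against the control H3K4me1 list the share of RAD21 siRNA REST peaks was 18.7%.

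Of the 1002 peaks, 385 overlapped a control REST peak and 605, or 60.4% (57.3% to 63.4%), had none within 1000 bp. Outside H3K4me1 855 of 3358 RAD21 siRNA REST peaks, or 25.5%, had none. The 605 new peaks were near the calling limit, with a median of 11 tags and a median p score of 62.4; 521 of them had a p score under 100 and 245 an FDR under 5%. H3K4me1 was already called at 433 of them in control cells. The new peaks were chosen as called under RAD21 siRNA and not in control cells, so their shares with other targets are a description. A JUND peak was held by 44.1% under RAD21 siRNA and 4.79% under control siRNA, in libraries with a JUND tag ratio of 2.02. CTCF was at 29.4% and 21.3%, MYC at 28.3% and 30.1%, NIPBL at 26.8% and 10.4%, and HNF4A at 21.7% and 6.61%. The cohesin subunits went opposite ways at the new peaks, RAD21 at 24.1% under RAD21 siRNA and 16.4% under control siRNA and SMC3 at 13.9% and 18.3%, and KLF5 stood at 7.93% and 15.2%. At the 385 peaks shared with control cells, JUND was at 17.4% under RAD21 siRNA and 3.64% under control siRNA, and RAD21 at 12.2% and 18.4%. NIPBL stood there at 11.4% and 13.5%, HNF4A at 10.6% and 14.5%, CTCF at 21.0% and 21.3%, and MYC at 11.2% and 19.2%. SMC3 was at 6.23% and 23.1%, and KLF5 at 2.08% and 10.9%. Shares over all RAD21 siRNA REST peaks are not given here.

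**Figure D5:**
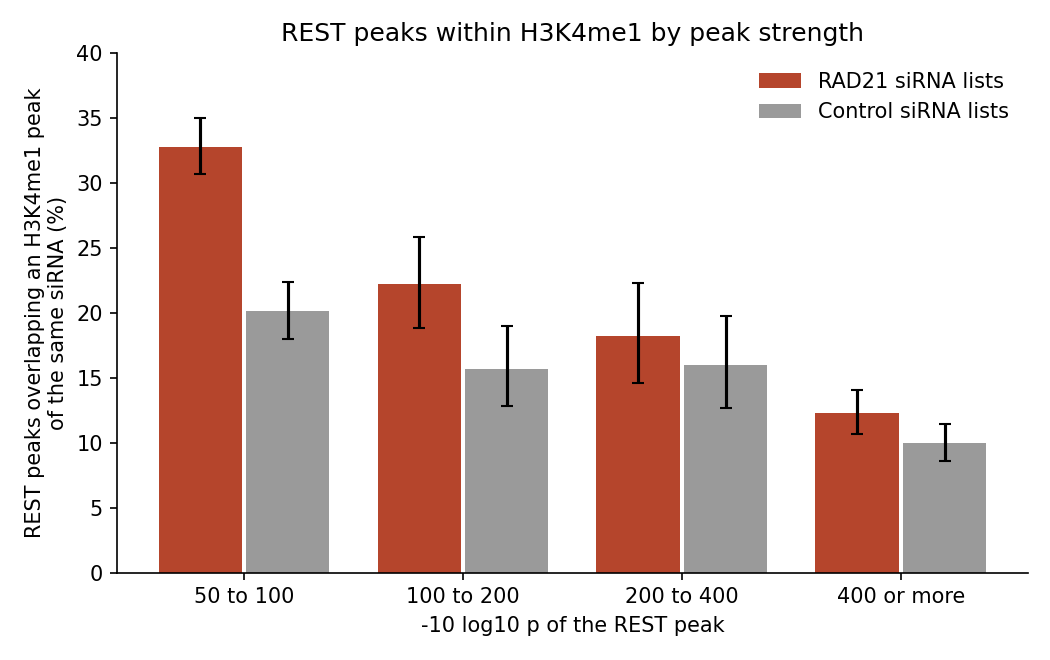
Share of REST peaks that overlap an H3K4me1 peak of the same siRNA, by the REST peak's −10 × log10 p, for RAD21 siRNA lists (red) and control lists (grey) with 95% Clopper-Pearson intervals. The share falls with strength under RAD21 siRNA from 32.8% to 12.3%, and the siRNAs differ most in the weakest class, at 32.8% and 20.1%.

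Single sites show the range behind these shares. The strongest member found again, chr19:51411496-51422704, had 303 REST tags under RAD21 siRNA and 1098 under control siRNA; its H3K4me1 peak had 114 and 188 tags, and a MYC peak was listed in control cells only. It was the widest member, at 11209 bp, and its tags fell well below the library ratio. At chr4:3761060-3766205, the next in strength, REST had 562 and 839 tags, while RAD21 (96 tags), SMC3 (95) and NIPBL (39) were listed in control cells only and CTCF had 18 and 70 tags. At chr6:34185837-34194892 REST had 457 and 785 tags inside a long H3K4me1 peak of 24557 and 24018 bp (1832 and 3127 tags), with RAD21 and NIPBL in control cells only. At chr11:61088644-61093102 REST had 434 and 666 tags and no peak of the 9 other targets under either siRNA. These 4 sites were picked for a strong REST peak found again, so they show nothing about how often that happens.

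Cohesin sites with CTCF differed among themselves. At chr19:46898910-46904355, REST had 410 tags under RAD21 siRNA and 594 under control siRNA, and RAD21, SMC3 and CTCF were all still listed. RAD21 had 228 tags under RAD21 siRNA and 488 under control siRNA, SMC3 172 and 648, and CTCF 303 and 314. A KLF5 peak was listed there in control cells only, and a JUND peak under RAD21 siRNA only. At chr1:38000187-38006112, REST had 368 and 591 tags, but RAD21, SMC3 and CTCF were listed in control cells only, RAD21 there with 36 tags, SMC3 with 65 and CTCF with 64. Of these sites and the one on chromosome 4 above, only that with the largest cohesin peaks kept them.

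The strongest members not found again were moderate peaks. At chr10:126426089-126427609 a control REST peak of 44 tags (fold 21.9) lay wholly inside an H3K4me1 peak with 125 tags under RAD21 siRNA and 334 under control siRNA. At chr20:19675799-19677596 the control REST peak had 39 tags, and H3K4me1 had 30 and 231 tags. At chr16:28216319-28218239 a control REST peak of 46 tags was lost together with its H3K4me1 peak of 39 tags. None of these 3 sites had a peak of another target under either siRNA, but the other of the 4 strongest lost members, on chromosome 8, had CTCF (31 tags) and KLF5 peaks in control cells only, beside 46 REST tags.

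In 3 members 10 of the 11 targets were listed in control cells. At the strongest of them, chr1:33458785-33461205, 5 were listed under RAD21 siRNA. REST had 14 tags under RAD21 siRNA and 56 under control siRNA there, RAD21 15 and 249, and H3K4me1 343 and 688. At chr22:35922518-35924371 REST (32 control tags) was not found again, while RAD21 had 64 tags under RAD21 siRNA and 173 under control siRNA. At chr19:48979700-48983206 REST (50 control tags), RAD21 (378) and SMC3 (405) were listed in control cells only, and H3K4me1 (812 and 1550 tags) and CTCF stayed. At chr17:4340958-4344794, the strongest member with 9 of the 11 targets, REST had 256 and 485 tags, and RAD21 (54) and SMC3 (56) were listed in control cells only.

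The 3 strongest RAD21 siRNA REST peaks within H3K4me1 that had no control REST peak within 1000 bp were picked for strength, so they do not stand for the new peaks. At chr1:6226204-6230009 REST had 164 tags under RAD21 siRNA, beside RAD21 (149 tags), SMC3 (64) and CTCF (105) in the same cells, and these 3 were listed in control cells as well. At chr20:61754384-61756097 REST had 112 tags and H3K4me1 17, with KLF5 listed under both siRNAs. At chr19:54314353-54316547 REST had 113 tags and H3K4me1 316, with none of the 11 targets listed there in control cells.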

How the data were processed

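The submitters' processing notes name CASAVA 1.4, BWA, MACS 1.4 and the hg18 build. The authors called peaks per library against an IgG library with MACS 1.4.0rc2, per the file headers, with a p cutoff of 1e-05 and 1 tag kept per position. Each deposited peak has a tag count, a score (−10 × log10 p), a fold enrichment as a linear ratio over background and an FDR in percent; all are the authors' own values per peak. The FDR column has no name in the files and was identified by its agreement with the numbers of peaks given in the labels.

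From these lists, overlaps of at least 1 bp were computed with Python 3.11.15, numpy 2.4.6, pandas 2.3.3 and scipy 1.17.1. Shares have 95% Clopper-Pearson intervals. Differences of shares have 95% intervals, plain or with Mantel-Haenszel weights over 5 strata of p score ("at like strength") or of width. Overlap and interval code was tested on simulated data. Peak lists of the 6 IgG libraries were not used here. The members, lists and tests were chosen with earlier results of these data known. Regions named are the 4 strongest members found again, the 4 strongest not found again with no RAD21 siRNA REST peak within 1000 bp (the position of 1 is not reported here), the 4 with most targets, the 3 strongest with RAD21, SMC3 and CTCF, the 3 strongest new RAD21 siRNA peaks and 3 on each side of the overlap limit; the members with the highest tag ratios were added after their values were seen. Alternatives were other membership rules, FDR and p score limits, summit distance, other strata and equal list sizes. Gene names, sequences and the planned RE1 motif search were not used here, since the reference tables are of another build.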

Additional observations from a re-analysis of the deposited data

How the results depend on the processing

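The count of 598 members became 240 when REST peaks under an FDR of 5% alone were used, and stayed within 1.5 times under 3 other rules. The share found again, 58.4%, was 53.7% with the REST summit inside H3K4me1, 53.5% with 50% of the width covered, 95.8% for members under an FDR of 5% and 74.6% with a p score of at least 100 in both REST lists; 3 further settings kept it within its interval. The difference from outside peaks at like strength, −1.31 percentage points, was −12.5 without strata, 0.0376 for summits within 250 bp and 2.97 with strata of fold enrichment; apart from the unstratified value, every interval included 0. Among members, the difference with and without CTCF was −0.113 with 20 strata of p, and that with and without any other target, 0.55 points, was −0.549 for summits within 250 bp; the difference with H3K4me1 found again stayed between 10.8 and 17.96 points with intervals above 0. The tag ratio of 0.596 was 0.963 when scaled to each library's filtered tags and 0.955 relative to outside peaks. Targets whose difference from outside peaks had an interval above 0 numbered 6 to 8 of 9 under RAD21 siRNA and 8 or 9 under control siRNA in all 6 alternatives. The sizes moved more: 38 of 72 shares of members per target and setting left the interval of the reported share, as with summits within 250 bp, where control RAD21 fell to 9.53%. Of 117 differences per target and setting, 108 kept direction and side, 7 lost their interval above 0 (SMC3 and KLF5 under RAD21 siRNA, RFX2 under control siRNA), 1 gained it, and RFX2 at H3K4me1 peaks, without strata of width, was 0.0162. The share of REST peaks within H3K4me1 was higher under RAD21 siRNA by 3.40 to 9.04 points, 8.28 as reported. Strata of REST p and width for the targets, strata of H3K4me1 width and the settings for the RAD21 siRNA share were chosen after seeing the data. The causes were not tested. No paired analysis was possible because each target has 1 library per siRNA. The RE1 motif search was not run.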

Other observations

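The member share varied between chromosomes. It was 20.2% on chromosome 17 (35 of 173 control REST peaks), 18.6% on chromosome 10 and 18.5% on chromosome 11. It was 6.36% on chromosome X (7 of 110), 6.77% on chromosome 8 (13 of 192) and 6.98% on chromosome 21 (3 of 43). No test was made between chromosomes.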
